A study of Mus musculus with 7 samples.

Results

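The thick ascending limb is the part of the loop of Henle that carries filtrate from the medulla back up into the cortex. It was followed here through 8 genes, Umod, Slc12a1, Kcnj1, Bsnd, Cldn10, Cldn16, Cldn19 and Ptger3, which were found by their symbols among the 17537 genes of the deposited table. All 8 had at least 1 CPM (read counts scaled to library size and normalized between libraries) in at least 2 libraries and were among the 13976 genes tested. Each library was made from the polyA RNA of the renal tissue of 1 C57BL/6 mouse, and whether the tissue was whole kidney or one of its zones is not given in the sources used here. The controls (C, replicates 2, 8 and 9) were nondiabetic and received sodium citrate. The diabetic mice (DM-22, replicates 1 and 2) were made hyperglycemic at an age of 8 to 10 weeks with streptozotocin, a toxin of insulin-producing beta cells, at 60 mg/kg on 5 days, and were studied after 22 weeks. The treated mice (DM+SGLT2i, replicates 1 and 2) had the same hyperglycemia for 16 weeks and then dapagliflozin, an inhibitor of the glucose transporter SGLT2 of the proximal tubule, given with the drinking water (25 mg/kg) over the last 6 weeks. All mice were wild-type, and male mice are named in the labels, whereas the methods name both sexes.

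Cells of the thick ascending limb take up sodium, potassium and chloride from the filtrate through the cotransporter NKCC2, return potassium to the lumen through the channel ROMK and release chloride to the blood side with the help of barttin. The resulting lumen-positive voltage drives sodium, calcium and magnesium between the cells through pores made of claudins. The segment is impermeable to water, dilutes the urine, builds the osmotic gradient of the medulla and secretes uromodulin, the most abundant protein of normal urine.

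Reads on listed genes numbered 46456125 to 56541594 per library, so that 1 read was worth 0.0180 to 0.0231 CPM and the 8 genes were covered by 306 reads (Cldn16, lowest) to 385202 reads (Umod, highest). C replicate 2 stood apart from the other controls. Over genes with a mean of at least 1 CPM, its median absolute log2 difference was 0.401 from C replicate 8 and 0.175 from DM+SGLT2i replicate 2. Between C replicates 8 and 9 this difference was 0.109. Comparisons with the controls are therefore given with all 3 controls and without C replicate 2. Of the markers of the tissue, all 8 genes and the proximal tubule markers Slc34a1 (2841 to 9452 CPM) and Slc5a2 (169 to 930 CPM) were present in every library. Injury and urothelial markers differed widely between libraries. Their summed levels were 762 to 6239 CPM for 7 injury markers and 1.94 to 136 CPM for 5 urothelial markers, and both lists were higher in C replicate 2 (6239 and 58.1 CPM) than in C replicates 8 (931 and 5.45 CPM) and 9 (762 and 3.42 CPM).

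The sequences ahead of the start sites of 4 of the genes are shown for their place in what follows. Slc12a1 and Ptger3 had the most similar profiles over the 7 libraries, and Umod and Cldn10 held the only matches among the windows searched to the motif GTTAAT, a half-site of the HNF1 factors of tubular epithelium. The bases are those of RefSeq on build GRCm38.p6, read 5′ to 3′ on the strand of the gene, and end before the first annotated start of the gene. Capitals mark a match to GTTAAT or to its reverse complement ATTAAC.
Slc12a1, chr2:125152350-125152504, plus strand: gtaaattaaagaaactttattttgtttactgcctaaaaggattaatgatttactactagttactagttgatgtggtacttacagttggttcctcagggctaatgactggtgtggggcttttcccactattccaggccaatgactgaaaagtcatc
Ptger3, chr3:157566626-157566875, plus strand: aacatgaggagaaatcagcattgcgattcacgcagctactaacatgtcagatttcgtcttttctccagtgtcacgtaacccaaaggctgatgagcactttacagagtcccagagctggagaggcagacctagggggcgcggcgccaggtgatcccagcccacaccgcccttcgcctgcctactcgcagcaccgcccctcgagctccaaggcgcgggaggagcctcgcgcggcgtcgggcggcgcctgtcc
Umod, chr7:119479283-119479512, minus strand: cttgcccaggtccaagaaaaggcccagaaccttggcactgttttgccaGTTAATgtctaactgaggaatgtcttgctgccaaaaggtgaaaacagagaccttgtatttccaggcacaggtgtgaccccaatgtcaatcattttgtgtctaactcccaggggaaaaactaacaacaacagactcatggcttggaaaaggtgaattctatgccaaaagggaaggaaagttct
Cldn10, chr14:118787621-118787870, plus strand: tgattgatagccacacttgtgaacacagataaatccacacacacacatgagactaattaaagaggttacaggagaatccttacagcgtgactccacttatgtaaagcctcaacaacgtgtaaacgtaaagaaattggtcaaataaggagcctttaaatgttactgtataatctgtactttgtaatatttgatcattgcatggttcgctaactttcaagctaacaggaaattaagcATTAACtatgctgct

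RefSeq windows of 250 bases ahead of the start site were at hand for 7 of the 8 genes, in 9 windows. GTTAAT, searched on both strands, began 202 bases before the RefSeq start of Umod on the strand of the gene and 15 bases before the upstream start of Cldn10 on the opposite strand. The motif was present in 6.43% of 32851 windows of the same length over all genes. AAGGTCA, the half-site bound by estrogen-related receptors such as Esrrb, was in 0 of the 9 windows and in 4.08% of all windows. A match or its absence in these windows describes the sequence only.

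Of the 8 genes, 0 passed an adjusted p of 0.05 in any comparison (limma on log2(CPM + 0.5), Benjamini-Hochberg adjustment over all genes tested). With all 3 controls, 0 of 13976 genes (0%) passed in DM-22 mice compared with controls, in DM+SGLT2i mice compared with controls, in DM+SGLT2i compared with DM-22 mice, and in all 4 diabetic mice compared with controls. At an unadjusted p under 0.05 there were 625, 151, 547 and 285 genes in these comparisons, and limma with voom weights also gave 0 genes at the adjusted threshold in each. The adjusted p-values of the 8 genes were between 0.804 and 0.979 in DM-22 mice compared with all 3 controls. Without C replicate 2, the comparisons with controls gave 2 genes (0.0144%) for DM-22, 17 (0.123%) for DM+SGLT2i and 28 (0.202%) for all diabetic mice, again with 0 of the 8 among them. The 8 genes differed widely between mice of the same group, by amounts that varied from gene to gene.

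**Figure D1:**
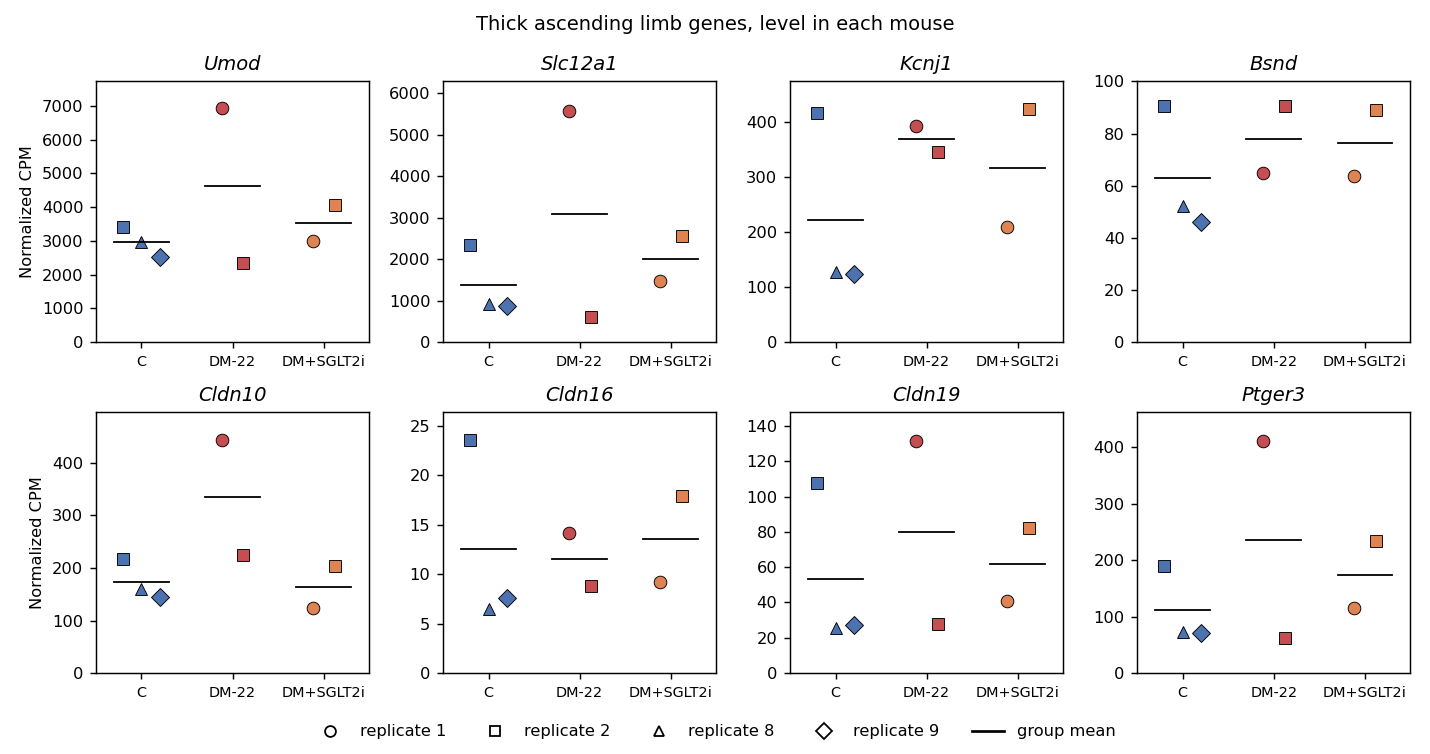
Level of each thick ascending limb gene in each mouse, in normalized CPM on linear axes that start at 0, with replicates as symbols and the mean of each group as a line. DM-22 replicate 1 (circle) is far above DM-22 replicate 2 (square) for Slc12a1 (5580 and 602 CPM), Ptger3 and Cldn19, whereas both lie close together for Kcnj1 (394 and 346 CPM).

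Slc12a1 encodes NKCC2, the target of loop diuretics, and is the defining gene of the segment (ENSMUSG00000027202, chr2:125152505-125230002 on GRCm38, plus strand). Its level was 2335, 922 and 876 CPM in C replicates 2, 8 and 9, 5580 and 602 CPM in DM-22 replicates 1 and 2, and 1465 and 2549 CPM in DM+SGLT2i replicates 1 and 2. The highest and the lowest of the 7 libraries were thus both from DM-22 mice, 9.26-fold apart, and the groups overlapped. The log2 fold change compared with controls was 0.57 (SE 0.95, adjusted p = 0.888, limma) in DM-22 and 0.65 (SE 0.95) in DM+SGLT2i mice, with 95% intervals of -1.70 to 2.84 and -1.62 to 2.91. Without DM-22 replicate 1 the first of these was -1.04, and without C replicate 2 they were 1.03 (SE 0.99, adjusted p = 0.533, limma) and 1.10 (SE 0.99). In RNA of renal tissue a different number of thick ascending limb cells and a different amount of RNA in each of them cannot be told apart.

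Kcnj1 encodes ROMK, the apical potassium channel, which is also made by principal cells of the collecting duct (ENSMUSG00000041248, chr9:32372493-32399197, plus strand). Controls had 416, 128 and 124 CPM (replicates 2, 8 and 9), DM-22 mice 394 and 346 CPM, and DM+SGLT2i mice 209 and 425 CPM. All 4 diabetic mice lay above C replicates 8 and 9, and C replicate 2 lay among the diabetic mice. With all 3 controls the log2 fold change was 0.97 (SE 0.58, adjusted p = 0.804, limma) in DM-22 and 0.66 (SE 0.58) in DM+SGLT2i mice. Without C replicate 2 it was 1.54 (SE 0.33) and 1.23 (SE 0.33), with adjusted p-values of 0.0931 and 0.162 (limma), and over all 4 diabetic mice it was 1.39 (SE 0.28, adjusted p = 0.0761, limma). These were the smallest adjusted p-values among the 8 genes in the comparisons with C replicates 8 and 9. C replicate 2 exceeded the mean of C replicates 8 and 9 by 1.72 on the log2 scale (3.29-fold), more than either diabetic group did.

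Bsnd encodes barttin, a chloride channel subunit, which is also made by intercalated cells (ENSMUSG00000025418, chr4:106483456-106492283, minus strand). Its level was 90.4, 52.4 and 46.0 CPM in C replicates 2, 8 and 9, 65.0 and 90.5 CPM in DM-22 mice, and 63.7 and 88.9 CPM in DM+SGLT2i mice. It varied least of the 8, 1.97-fold between the highest and the lowest library, and it was the only one of them that was lower in DM-22 replicate 1 than in DM-22 replicate 2 (0.718-fold). All 4 diabetic mice lay above C replicates 8 and 9, and 1 of them lay above C replicate 2. The log2 fold change in DM-22 mice was 0.35 (SE 0.33, adjusted p = 0.816, limma) with all 3 controls and 0.64 (SE 0.23, adjusted p = 0.162, limma) without C replicate 2, and in DM+SGLT2i mice it was 0.32 (SE 0.33) and 0.61 (SE 0.23, adjusted p = 0.249, limma).

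Cldn10 encodes claudin-10, whose isoforms form paracellular pores, one for cations in the thick ascending limb and another for anions in the proximal tubule (ENSMUSG00000022132, chr14:118787908-118875489, plus strand). The table holds 1 value for the gene, so that the isoforms cannot be told apart. Controls had 217, 160 and 145 CPM, DM-22 mice 444 and 225 CPM, and DM+SGLT2i mice 123 and 204 CPM. Both DM-22 mice lay above all 3 controls and both DM+SGLT2i mice, although DM-22 replicate 2 was close to C replicate 2. Cldn10 was the only one of the 8 genes for which the DM-22 and control libraries did not overlap, as did 10.8% of all genes tested in the upward direction. Its log2 fold change in DM-22 mice was 0.88 (SE 0.36, adjusted p = 0.804, limma) with all 3 controls and 1.05 (SE 0.38, adjusted p = 0.162, limma) without C replicate 2. DM+SGLT2i compared with DM-22 mice differed by -0.99 (SE 0.40, adjusted p = 0.881, limma), again the only one of the 8 without overlap (20% of all genes in the downward direction), and DM+SGLT2i compared with controls by -0.11 (SE 0.36), and by 0.06 (SE 0.38) without C replicate 2. Its unadjusted p was under 0.05 in the DM-22 comparison with all 3 controls, where 1.19% of the genes were higher at that level, and in the comparison of both diabetic groups, where 1.66% were lower.

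Cldn16 and Cldn19 encode the claudins that together form the calcium and magnesium pathway of the segment, loss of which causes familial renal magnesium wasting. Cldn16 (ENSMUSG00000038148, chr16:26463135-26482765, plus strand) had 23.6, 6.44 and 7.59 CPM in C replicates 2, 8 and 9, 14.1 and 8.81 CPM in DM-22 mice, and 9.18 and 17.9 CPM in DM+SGLT2i mice. Cldn19 (ENSMUSG00000066058, chr4:119255414-119262438, plus strand) had 108, 25.4 and 27.5 CPM in controls, 132 and 27.9 CPM in DM-22 mice, and 41.1 and 82.4 CPM in DM+SGLT2i mice. For both genes all 4 diabetic mice lay above C replicates 8 and 9, although DM-22 replicate 2 (27.9 CPM) barely did so for Cldn19, and C replicate 2 was 3.36-fold (Cldn16) and 4.08-fold (Cldn19) above the mean of C replicates 8 and 9. Cldn16 was highest in C replicate 2 and Cldn19 in DM-22 replicate 1. In DM-22 mice the log2 fold change of Cldn16 was 0.08 (SE 0.58, adjusted p = 0.979, limma) with all 3 controls and 0.64 (SE 0.36, adjusted p = 0.312, limma) without C replicate 2. For Cldn19 the same changes were 0.52 (SE 0.85, adjusted p = 0.886, limma) and 1.19 (SE 0.72, adjusted p = 0.339, limma). In DM+SGLT2i mice Cldn16 had 0.27 and 0.83 and Cldn19 0.46 and 1.13, with and without that control. An antisense transcript, Gm12927, overlaps Cldn19, and whether reads were counted by strand is not given in the sources used here.

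Ptger3 encodes EP3, a receptor through which prostaglandin E2 restrains salt transport in the thick ascending limb (ENSMUSG00000040016, chr3:157566892-157645888, plus strand). Its level followed that of Slc12a1, with 190, 73.2 and 70.6 CPM in C replicates 2, 8 and 9, 411 and 61.7 CPM in DM-22 mice, and 115 and 234 CPM in DM+SGLT2i mice. As for Slc12a1, the highest and lowest libraries were DM-22 replicates 1 and 2, here 6.67-fold apart, with the controls in between. The log2 fold change was 0.68 (SE 0.84, adjusted p = 0.858, limma) in DM-22 and 0.72 (SE 0.84) in DM+SGLT2i mice. Leaving out C replicate 2 gave 1.14 (SE 0.86, adjusted p = 0.429, limma) and 1.18 (SE 0.86), and leaving out DM-22 replicate 1 gave -0.69 for DM-22.

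Umod encodes uromodulin, the gene with the highest level of the 8 (ENSMUSG00000030963, chr7:119462711-119479282, minus strand). Controls had 3417, 2957 and 2534 CPM, DM-22 mice 6933 and 2337 CPM, and DM+SGLT2i mice 3013 and 4064 CPM. The controls lay within a narrow range, inside that of the DM-22 mice, and C replicate 2 exceeded the mean of the other controls by 1.24-fold, the smallest such difference of the 8. DM-22 replicates 1 and 2 differed 2.97-fold. The log2 fold change was 0.45 (SE 0.52, adjusted p = 0.845, limma) in DM-22 and 0.25 (SE 0.52) in DM+SGLT2i mice, and -0.33 for DM-22 without replicate 1. The changes were 0.56 and 0.35 (SE 0.57) without C replicate 2. Antisense genes also overlap Umod (Gm44588) and Slc12a1 (Gm14002).

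**Figure D2:**
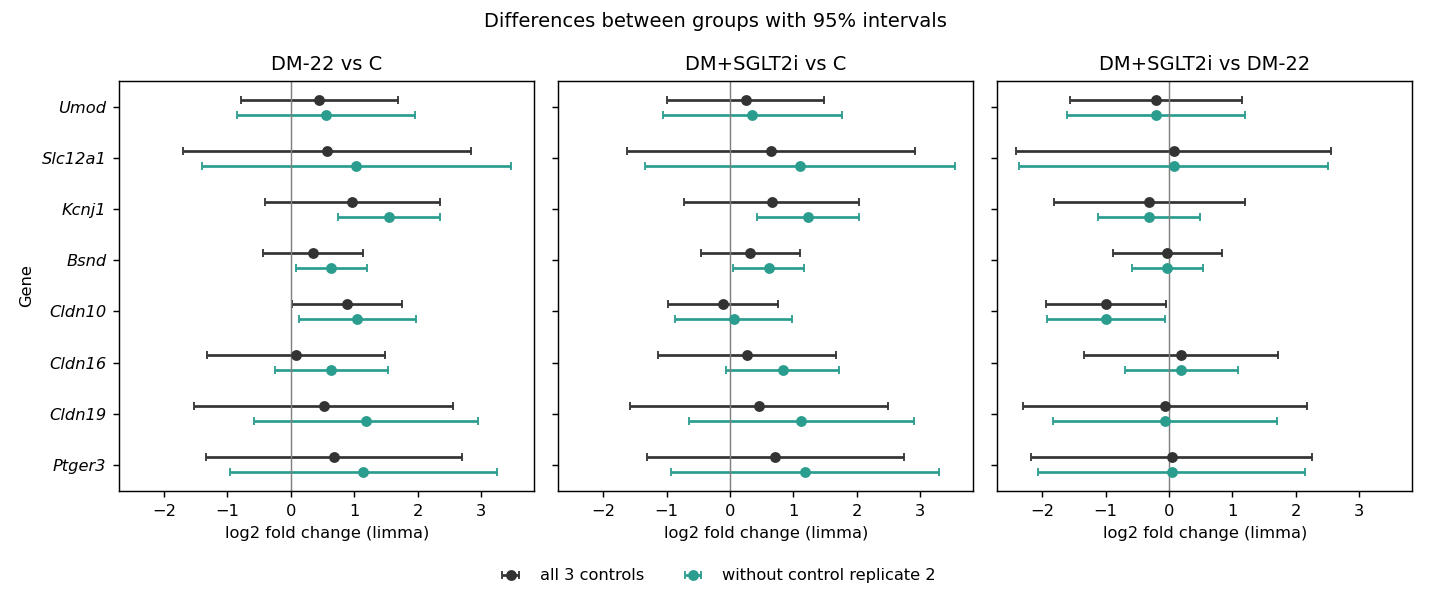
Log2 fold changes of the 8 genes with 95% intervals from limma, for DM-22 and DM+SGLT2i mice compared with controls and for both diabetic groups compared with each other, with all 3 controls (black) and without C replicate 2 (green). The intervals of Slc12a1, Cldn19 and Ptger3 are the widest, and without C replicate 2 that of Kcnj1 in DM-22 mice runs from 0.74 to 2.35. All intervals are unadjusted.

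Together, 8 of 8 genes had a positive log2 fold change in DM-22 mice and 7 of 8 in DM+SGLT2i mice compared with all 3 controls, with medians of 0.54 and 0.39 beside medians over all genes of 0.00 and -0.01. Both comparisons use the same controls. Without C replicate 2 the medians of the 8 were 1.04 and 0.97. In the same comparisons the markers of other cell types had medians of -0.53 and -0.55 (proximal tubule, 0 of 10 higher in either), 0.66 and 0.58 (principal cells) and 0.50 and 0.58 (medulla and thin limbs). Those of the other lists were 0.55 and 0.25 (intercalated cells), 0.11 and 0.27 (distal convoluted tubule), 0.40 and 2.12 (urothelium) and 0.68 and 1.87 (injury). The part of these cell types was not tested. Then 5 of 8 genes in DM-22 and 7 of 8 in DM+SGLT2i mice lay above C replicates 8 and 9 without overlap, while 29.9% and 27.8% of all genes did so. All 4 diabetic mice lay above both of these controls for Kcnj1, Bsnd, Cldn16 and Cldn19, 4 of 8 genes compared with 14.9% of all genes. At an unadjusted p under 0.05, 3 of 8 (Kcnj1, Bsnd and Cldn10) were higher in DM-22 and 2 of 8 (Kcnj1 and Bsnd) in DM+SGLT2i mice, where 10.5% and 8.68% of all genes were. Leaving out DM-22 replicate 1 in place of a control took the median in DM-22 mice to -0.29, and leaving out DM-22 replicate 2 took it to 1.30. For DM+SGLT2i compared with DM-22 mice, the 8 genes had a median of -0.04 (all genes 0.00), and 3 were higher and 5 lower.

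Differences within groups were as large as these. DM-22 replicate 1 exceeded replicate 2 by more than 1 on the log2 scale for 4 of the 8 genes (Umod 1.57, Slc12a1 3.21, Cldn19 2.22 and Ptger3 2.73), while 5.82% of all genes did. C replicate 2 exceeded the mean of C replicates 8 and 9 by that much for 5 of them (Slc12a1 1.38, Kcnj1 1.72, Cldn16 1.68, Cldn19 2.01 and Ptger3 1.40), while 9.0% of all genes did. DM+SGLT2i replicate 2 lay above replicate 1 for all 8, by 0.43 (Umod) to 1.02 (Kcnj1), and for 2 of 8 by more than 1 (0.508% of all genes). C replicates 8 and 9 were closest to each other, with differences of -0.22 (Cldn16) to 0.22 (Umod).

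Levels were compared between genes per kilobase of exon. Umod was highest with a mean of 1306 CPM per kb over the 7 libraries, followed by Slc12a1 with 355, Kcnj1 with 87.6, Cldn10 with 83.7, Ptger3 with 29.0, Bsnd with 25.8, Cldn19 with 14.9 and Cldn16 with 10.7 CPM per kb. Umod and Slc12a1 held the first and second rank in every library. The neighbours in the rest of this order did not hold their places: Cldn19 exceeded Bsnd in DM-22 replicate 1, Cldn10 exceeded Kcnj1 in C replicates 8 and 9 and in DM-22 replicate 1, Bsnd exceeded Ptger3 in C replicates 8 and 9, DM-22 replicate 2 and DM+SGLT2i replicate 1, and Cldn16 exceeded Cldn19 in C replicate 9 and DM-22 replicate 2.

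Ratios within a library, which no scaling of the library can change, showed which genes kept step with Slc12a1. Ptger3 stayed at 0.0747 to 0.104 of the level of Slc12a1 per kb in the 7 libraries, a 1.39-fold range, and Cldn19 at 0.0319 to 0.0625, a 1.96-fold range. The ratio of Umod ran from 2.59 to 8.09, that of Cldn10 from 0.177 to 0.831, that of Cldn16 from 0.0125 to 0.0718, that of Kcnj1 from 0.122 to 0.994 and that of Bsnd from 0.0244 to 0.314, the last a 12.9-fold range. All 7 ratios were lowest in DM-22 replicate 1 and highest in DM-22 replicate 2. Slc12a1, the denominator of each, was itself highest in the first and lowest in the second of these libraries. It varied most of the 8 genes (9.26-fold), so that the shared extremes follow in part from dividing by it. In those libraries Slc12a1 itself stood at 31.6 and 0.763 times the level per kb of Slc12a3, the thiazide-sensitive cotransporter of the next segment, the distal convoluted tubule, compared with 1.73 to 6.20 in the controls and 2.48 and 4.98 in DM+SGLT2i mice.

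**Figure D3:**
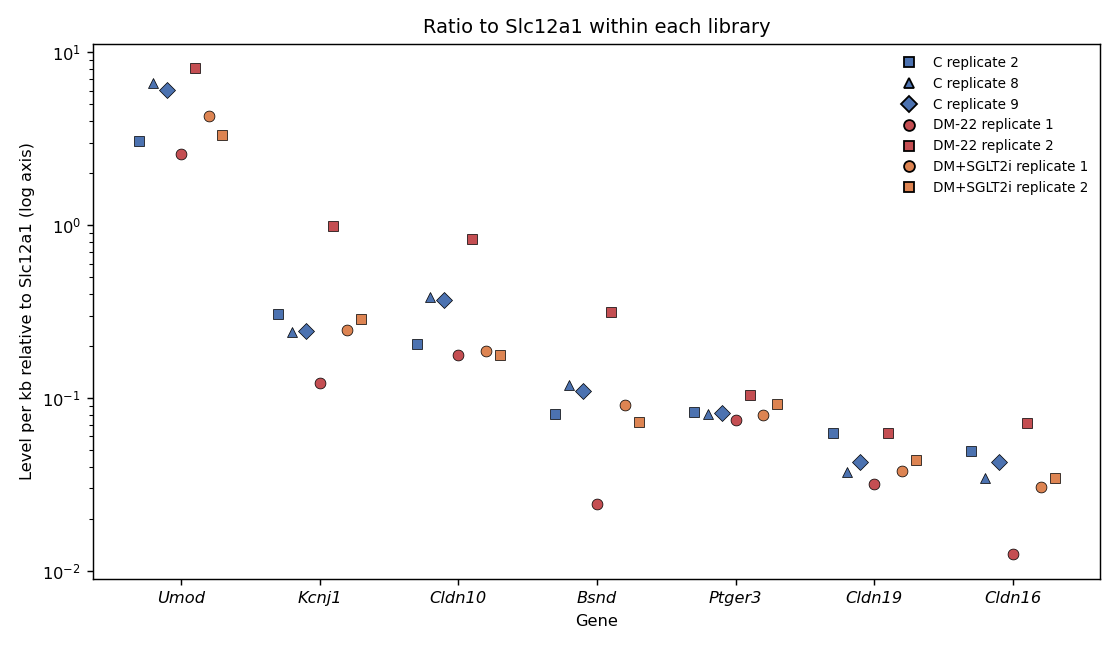
Level per kb of each of the other 7 genes divided by that of Slc12a1 within each library, on a log axis. The Ptger3 ratios of the 7 libraries lie within 1.39-fold of each other, whereas the Bsnd ratios spread 12.9-fold, with DM-22 replicate 1 lowest and DM-22 replicate 2 highest.

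The means of some marker lists of other segments moved with these differences, and those of others deviated the other way in the DM-22 mice. The mean log2 deviation of 6 markers of the medulla and thin limbs from their mean over the libraries was 0.74, -0.64 and -0.53 in C replicates 2, 8 and 9, 1.43 and -1.39 in DM-22 replicates 1 and 2, and -0.28 and 0.66 in DM+SGLT2i replicates 1 and 2, and their summed level was 1333 to 3606 CPM. Umod, Cldn16, Cldn19, Ptger3 and Slc12a1 deviated in the same direction in every library, Slc12a1 by 0.57, -0.77 and -0.84 in controls, 1.83 and -1.38 in DM-22, and -0.10 and 0.70 in DM+SGLT2i mice. Slc14a2, the urea transporter of the inner medulla and thin descending limb, had 84.9, 23.7 and 25.6 CPM in controls, 267 and 2.84 CPM in DM-22, and 14.8 and 88.5 CPM in DM+SGLT2i mice, a 93.9-fold range, and Aqp1, the water channel of the thin descending limb and proximal tubule, had 887 to 2121 CPM. Not all medullary markers followed their mean. Slc6a6 had 569, 654 and 590 CPM in C replicates 2, 8 and 9. Slc6a6 and Akr1b3 were higher in DM+SGLT2i replicate 1 (656 and 88.4 CPM) than in DM+SGLT2i replicate 2 (546 and 75.2 CPM). The mean of the principal cell markers (7 markers, sum 574 to 1294 CPM) had the same signs as that of the medullary markers. It was 0.65, -0.48 and -0.47 in controls, 0.58 and -0.38 in DM-22, and -0.35 and 0.44 in DM+SGLT2i mice. This list was split between the DM-22 mice. Scnn1b, Scnn1g and Hsd11b2 were lower in DM-22 replicate 1 than in DM-22 replicate 2, and Aqp2, Aqp3, Aqp4 and Fxyd4 were higher. The mean of the distal convoluted tubule markers (6 markers, sum 1234 to 3723 CPM) deviated opposite to Slc12a1 in DM-22 replicates 1 and 2, by -1.01 and 0.73. So did the means of the proximal tubule markers (10 markers, sum 9501 to 23714 CPM), by -0.62 and 0.45, and of the intercalated cell markers (9 markers, sum 482 to 844 CPM), by -0.29 and 0.48. Bsnd, with -0.08 and 0.39, had the signs of the distal convoluted tubule, proximal tubule and intercalated cell means in these mice. Among the intercalated cell markers, Aqp6 (223 and 82.2 CPM) and Slc4a1 (112 and 87.0 CPM) were higher in DM-22 replicate 1 than in replicate 2, and the others were lower. Among the proximal tubule markers, Cubn (549 and 520 CPM), Slc27a2 (3493 and 3397 CPM) and Slc7a13 (681 and 603 CPM) were higher in DM-22 replicate 1. The other proximal tubule markers were lower in it. With all 3 controls, the median log2 fold change in DM-22 mice was 0.17 for the medullary, 0.38 for the principal cell, 0.21 for the intercalated cell, -0.03 for the distal convoluted tubule, -0.21 for the proximal tubule, -0.63 for the urothelial and 0.08 for the injury markers, and 0 genes of these lists passed the adjusted threshold (limma). Without C replicate 2 these medians were 0.50, 0.66, 0.55, 0.11, -0.53, 0.40 and 0.68, in the same order, so that the signs of the distal convoluted tubule and urothelial lists turned. In DM+SGLT2i mice the injury markers had a median of 0.89 with all 3 controls, with 0 of 7 at an unadjusted p under 0.05, and of 1.87 without C replicate 2, with 7 of 7 higher at that level (8.68% of all genes; smallest adjusted p = 0.0715, limma). The part of these cell types in the levels of the 8 genes was not tested.

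**Figure D4:**
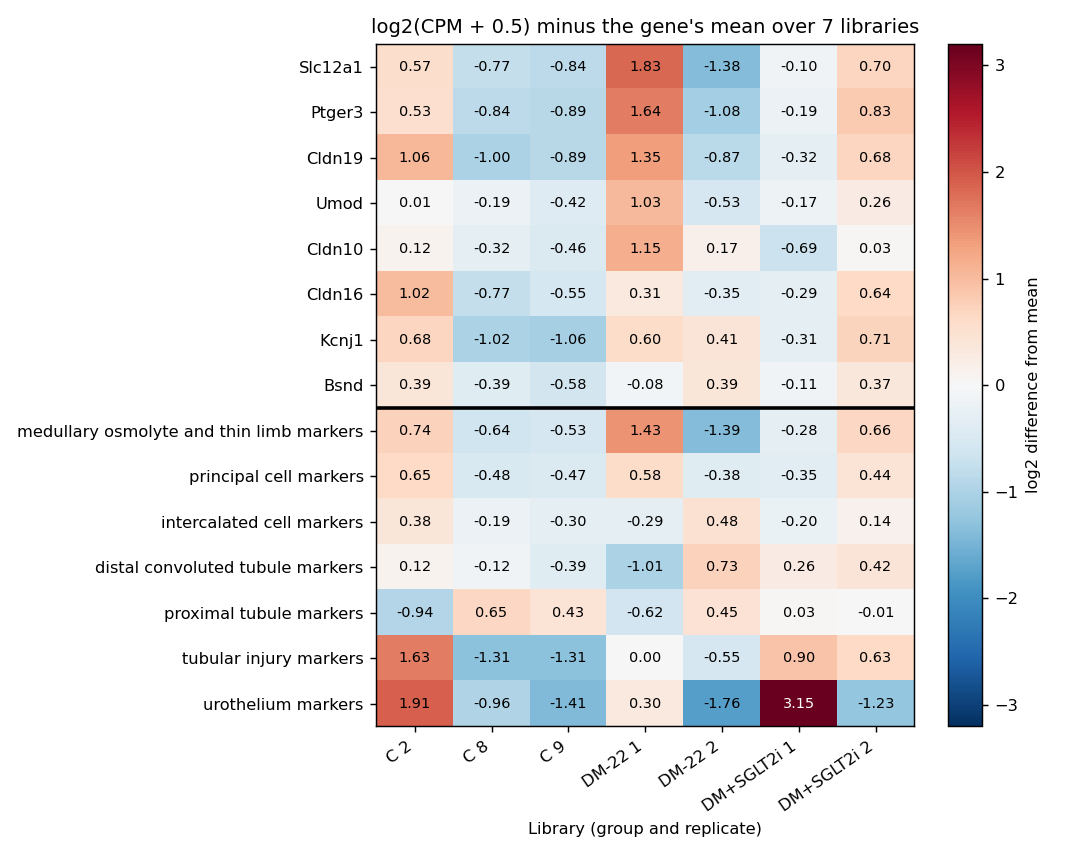
Deviation of each of the 8 genes (above the line) and mean deviation of marker lists of other cell types (below it) from the mean over the 7 libraries, on the log2(CPM + 0.5) scale, with the value in each cell. Slc12a1, Ptger3, Cldn19, Cldn16, Umod and the list means of the medullary and principal cell markers share their signs in every library. Within the principal cell list, Scnn1b, Scnn1g and Hsd11b2 were lower in DM-22 replicate 1 than in DM-22 replicate 2, the opposite order to the list mean. Within the medullary list, Slc6a6 was lower in C replicate 2 than in C replicates 8 and 9, also opposite to the list mean. Slc12a1, Ptger3 and the medullary markers had 1.83, 1.64 and 1.43 in DM-22 replicate 1 and -1.38, -1.08 and -1.39 in DM-22 replicate 2.

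The profiles of the 8 genes over the 7 libraries were compared by the root mean square difference of their centred log2 values. Slc12a1 and Ptger3 were closest (0.15), followed by Cldn19 and Ptger3 (0.26), and Slc12a1 and Bsnd were farthest apart (1.01). Among all genes tested, Ptger3, Sim2 (0.18) and Rasgrp1 (0.19) were nearest to Slc12a1, and Ptgds (0.13), Slc12a1 (0.15) and Atp2c2 (0.16) to Ptger3. The nearest to Kcnj1 were Hist1h4h (0.13), Defb1 (0.17) and Sostdc1 (0.19), and those to Bsnd were Rogdi (0.08), B3gnt7 (0.09) and Rapsn (0.09). Nearest to Cldn10 were Nrgn (0.14), Vpreb1 (0.14) and Gm17750 (0.15), to Cldn16 Arhgdib (0.16), S100a11 (0.18) and Scg5 (0.18), and to Cldn19 Ifitm1 (0.13), Plet1 (0.17) and Cd24a (0.18). Umod was nearest to Sept1 (0.07), Wnk3 (0.10) and Fam131c (0.10). Defb1 encodes a beta-defensin of the distal nephron. It had 369, 114 and 112 CPM in controls, 279 and 294 CPM in DM-22, and 162 and 276 CPM in DM+SGLT2i mice. Its high value in C replicate 2, shared with Kcnj1, follows from its choice by profile.

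Other genes of the thick ascending limb were grouped by role, and in each list 0 genes passed the adjusted threshold in any comparison, with or without C replicate 2 (limma). Of 13 further salt transport genes tested (Oxsr1 was not listed), 12 were higher in DM-22 mice with all 3 controls, with a median log2 fold change of 0.30, and 0 had an unadjusted p under 0.05. The median was 0.51 without C replicate 2, and 4 of 13 were higher at that level, where 10.5% of all genes were. Wnk4, a kinase that acts upstream of NKCC2 and the thiazide-sensitive cotransporter, had a log2 fold change of 0.42 and Kcnj16, a subunit of the basolateral potassium channel, one of 0.45, both with an adjusted p of 0.804 (limma), and 0.51 and 0.56 without C replicate 2.

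Of 5 hormone receptor and signalling genes tested, 4 were higher after 22 weeks of diabetes (median 0.04, and 0.06 with 3 of 5 higher without C replicate 2). Casr, the calcium-sensing receptor that restrains salt transport, had 75.2, 53.4 and 37.2 CPM in controls, 78.7 and 85.1 CPM in DM-22, and 71.0 and 61.5 CPM in DM+SGLT2i mice. All 4 diabetic mice lay above C replicates 8 and 9, and its log2 fold change in DM-22 mice was 0.62 (SE 0.28, adjusted p = 0.804, limma), and 0.87 (SE 0.19, adjusted p = 0.0943, limma) without C replicate 2. Avpr2, the vasopressin receptor of thick ascending limb and collecting duct, had 39.8, 10.99 and 11.9 CPM in controls, 46.3 and 25.1 CPM in DM-22, and 17.9 and 39.1 CPM in DM+SGLT2i mice, with a log2 fold change of 0.95 (adjusted p = 0.804, limma), and 1.54 (adjusted p = 0.114, limma) without C replicate 2. Gcgr, the glucagon receptor, had -0.07 with all 3 controls and -0.16 without C replicate 2, and Calcr, the calcitonin receptor, was below the filter with at most 0.978 CPM.

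Of 4 further tight junction genes tested, 2 were higher in the DM-22 group (median 0.19), and 3 without C replicate 2 (median 0.53). The log2 fold changes with and without that control were 0.47 and 0.74 for Cgn (cingulin), -0.11 and -0.10 for Tjp1 (ZO-1), and 0.40 and 0.63 for Ocln (occludin). Cldn14, the claudin that inhibits the pore of claudin-16 and claudin-19, was below the filter with 0.0421 to 0.254 CPM. Among 11 other thick ascending limb genes (Pou3f3 was not listed) 9 were higher, with a median of 0.33, and 7 without C replicate 2, with a median of 0.50. Tmem72 had 116, 54.1 and 45.5 CPM in controls, 220 and 83.9 CPM in DM-22, and 67.4 and 115 CPM in DM+SGLT2i mice, with a log2 fold change in DM-22 mice of 1.04 (adjusted p = 0.804, limma), and 1.45 (adjusted p = 0.147, limma) without C replicate 2. For Esrrb, a nuclear receptor, these values were 0.80 and 1.13. Egf, the growth factor precursor made in this segment and the distal convoluted tubule, had 0.74 with all 3 controls and 0.38 without C replicate 2, which (685 CPM) lay below all other libraries (1246 to 2178 CPM), unlike for any of the 8 genes. In DM+SGLT2i mice the medians of these 4 lists were 0.28, 0.06, 0.18 and 0.17, in the order given, and 0.46, 0.08, 0.46 and 0.27 without C replicate 2.

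The macula densa, the sensor cells at the end of the thick ascending limb, was followed by 3 tested genes, Nos1, Pappa2 and Avpr1a, which were highest in DM-22 replicate 2. Avpr1a had 8.85, 6.23 and 4.87 CPM in controls, 5.58 and 20.4 CPM in DM-22, and 11.9 and 12.6 CPM in DM+SGLT2i mice. Pappa2 had 0.252 CPM in DM-22 replicate 1 and 2.82 CPM in DM-22 replicate 2, and Nos1 0.666 and 3.54 CPM, the opposite order to Slc12a1. The median log2 fold change of the 3 genes was 0.09 in DM-22 and 0.15 in DM+SGLT2i mice, and 0.28 and 0.34 without C replicate 2, and 0 passed the adjusted threshold. Ptgs2, which encodes an enzyme of prostaglandin synthesis, was below the filter with 0.235 to 1.67 CPM.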

How the data were processed

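Libraries were made from polyA RNA of renal tissue with a strand-specific kit, 1 per mouse, and the labels gave the groups and replicate numbers. The submitters' processing notes name bcl2fastq, FastQC, Trim Galore, STAR and edgeR with build mm10, without versions. Whether strand was used in counting is not given in the sources used here. The authors deposited log2 values of TMM-normalized CPM for 17537 genes, to which a constant of about 2 reads had been added. CPM were recovered by subtracting this constant (0.0395 CPM), and 100% of the recovered values were whole reads within 0.1 read. Reads on listed genes numbered 46456125 to 56541594 per library, and TMM factors were 0.891 to 1.08.

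The fit was by limma 3.58.1 under R 4.3.3 (lmFit, eBayes with trend) on log2(CPM + 0.5) of all genes that reached 1 CPM in 2 or more libraries, with the 3 groups fitted together, two-sided p-values, Benjamini-Hochberg adjustment over all genes tested and a threshold of 0.05. Fold changes are on this scale. The fit was also run on simulated counts with the same spread for all genes and no library that stood apart. That run does not show how the fit performs with mice as uneven as these. Alternatives were pseudocounts of 0.1 and 1, no filter, library totals without TMM, median-of-ratios size factors, voom weights on the recovered reads, only the groups compared, each library left out, and a replicate block. Positions and exon lengths are from GENCODE M21 on GRCm38, start site sequences from RefSeq. The 8 genes, the marker lists and the motifs were chosen with earlier results of these data known. Named genes were the 8 in every comparison, the 3 genes with the smallest p in each thick ascending limb list, the first 2 of each other list and, for each of the 8, the 3 genes with the nearest centred profile. The paper's other experiments were not analysed here. Values of some listed genes are not reported here.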

Additional observations from a re-analysis of the deposited data

How the results depend on the processing

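With 2 or 3 mice per group the precision is limited by the spread between mice, not by read depth. Over 232 values of the 8 genes under other pseudocounts, no filter, other scalings, voom weights, the groups compared alone or the replicate block, 229 kept their direction, none passed the adjusted threshold (smallest adjusted p = 0.731, limma), and 3 close to 0 changed sign, all with library totals without TMM (Cldn16 in DM-22 compared with C, -0.00567, and Bsnd and Cldn19 in DM+SGLT2i compared with DM-22, 0.0801 and 0.0458). That scaling took the median of all genes in DM+SGLT2i compared with DM-22 from 0.0045 to 0.106. It also moved the counts at an unadjusted p under 0.05 in the DM-22 group from 166 higher and 459 lower to 48 and 675. Fitting the groups compared alone moved these counts in DM+SGLT2i compared with DM-22 from 315 and 232 to 559 and 145.

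With each library left out in turn, 193 of 224 values kept their direction and 31 changed sign, with a smallest adjusted p of 0.0761 (limma). Where a diabetic library was left out, the remaining one of its group was assumed to vary like the other groups. The number of genes past the threshold ranged from 0 to 2 in DM-22, 0 to 17 in DM+SGLT2i and 0 to 28 in all diabetic mice compared with controls, each highest without C replicate 2. The log2 fold changes whose sign turned ranged as follows. In DM-22 compared with C they were -0.33 to 1.23 for Umod, -1.04 to 2.17 for Slc12a1, -0.26 to 0.64 for Cldn16, -0.59 to 1.63 for Cldn19 and -0.69 to 2.04 for Ptger3, with the lowest values without DM-22 replicate 1, except for Cldn16 (without C replicate 8). In DM+SGLT2i compared with C they were -0.47 to 0.25 for Cldn10, -0.19 to 0.83 for Cldn16 and -0.041 to 1.13 for Cldn19. In DM+SGLT2i compared with DM-22 they were -0.99 to 0.58 for Umod, -1.53 to 1.68 for Slc12a1, -0.82 to 0.20 for Kcnj1, -0.27 to 0.21 for Bsnd, -0.27 to 0.66 for Cldn16, -1.17 to 1.05 for Cldn19 and -1.32 to 1.40 for Ptger3. In all diabetic mice compared with C they were -0.044 to 0.74 for Umod, -0.20 to 1.41 for Slc12a1, -0.16 to 0.74 for Cldn16 and -0.068 to 1.16 for Cldn19. The cause of these turns was not tested.

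The replicate numbers 1 and 2 of DM-22 and DM+SGLT2i mice gave no sign of pairing (correlation of deviations -0.04 over genes). With the replicate block, 0 of 13557 genes passed the threshold in this comparison, and 536 were higher and 157 lower at an unadjusted p under 0.05.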
